A study of Mus musculus with 6 samples.

Results

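The data describe 10 transcription factors of fibroblast activation in the pressure-overloaded left ventricle of the mouse. They were chosen by name: Runx1, Runx2, Sox9, Meox1, Twist1, Tcf21, Scx, Klf4, Snai2 and Prrx1. A gene counted as measured where the array annotation gave a row that symbol and no other, and of several such rows the one with the highest mean signal would have stood for the gene. By this rule 9 of the 10 factors were measured, each by a single row, among 14860 genes in all. Runx2 had no such row and is left out.

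The 6 arrays came from 6 male wild-type C57BL/6 mice, 1 for each array. A constriction of the transverse aorta (TAC) had raised the load on the ventricle for 1 week in 2 mice (1 W TAC) and for 4 weeks in another 2 (4 W TAC), and the remaining 2 had a sham operation without pressure overload (Sham). No source used here gives how long after surgery the Sham ventricles were taken. Total RNA of the ventricle was hybridised to Affymetrix GeneChip Mouse Exon 1.0 ST arrays, and the values are log2 signals per gene. A log2 ratio is the difference between the means of 2 groups on that scale.

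Fibroblasts keep the collagen network of the heart, and under a raised load they can become myofibroblasts, which secrete matrix and contract it. Transcription factors known from the embryonic mesenchyme, the tissue that gives rise to cartilage, bone, tendon and connective tissue, take part in that switch. The listed factors belong to 5 DNA-binding families: homeodomain proteins (Meox1 and Prrx1), Runt domain proteins (Runx1 and Runx2), a Sox protein (Sox9), basic helix-loop-helix proteins (Scx, Tcf21 and Twist1) and zinc finger proteins (Snai2 and Klf4). Several of them are also made by other cells of the heart, Runx1 by blood-derived cells and Klf4 by endothelium and macrophages among them. In a piece of whole ventricle, a change in the number of cells of a type cannot be told apart from a change of RNA per cell.

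Meox1, Scx and Runx1 stood apart from the other factors at 1 W TAC, with signals 5.08, 3.08 and 3.07 times those in Sham. Tcf21 and Sox9 had ratios near 1.5-fold, Twist1 and Snai2 smaller ones, and Prrx1 and Klf4 lay close to Sham. At 4 W TAC the ratios of Meox1, Scx and Runx1 to Sham were smaller, 2.72, 1.78 and 1.41-fold. No factor passed limma's test with p values adjusted over all 23332 rows (0 of 9 in each comparison), where the share of rows that passed was 0.00429% at 1 W TAC, 0% at 4 W TAC and 0% in 4 W TAC against 1 W TAC. At an unadjusted p under 0.05, 5 of the 9 were higher at 1 W TAC, 2 higher at 4 W TAC and 3 lower at 4 W TAC relative to 1 W TAC, beside 7.16%, 2.42% and 3.33% of all genes in those directions. Where the fit held only the 14996 rows that carry 1 symbol, 3 of the 9 passed as higher at 1 W TAC, namely Meox1, Scx and Runx1, against a background of 1.37%. No factor passed in the other comparisons of that fit.

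**Figure D1:**
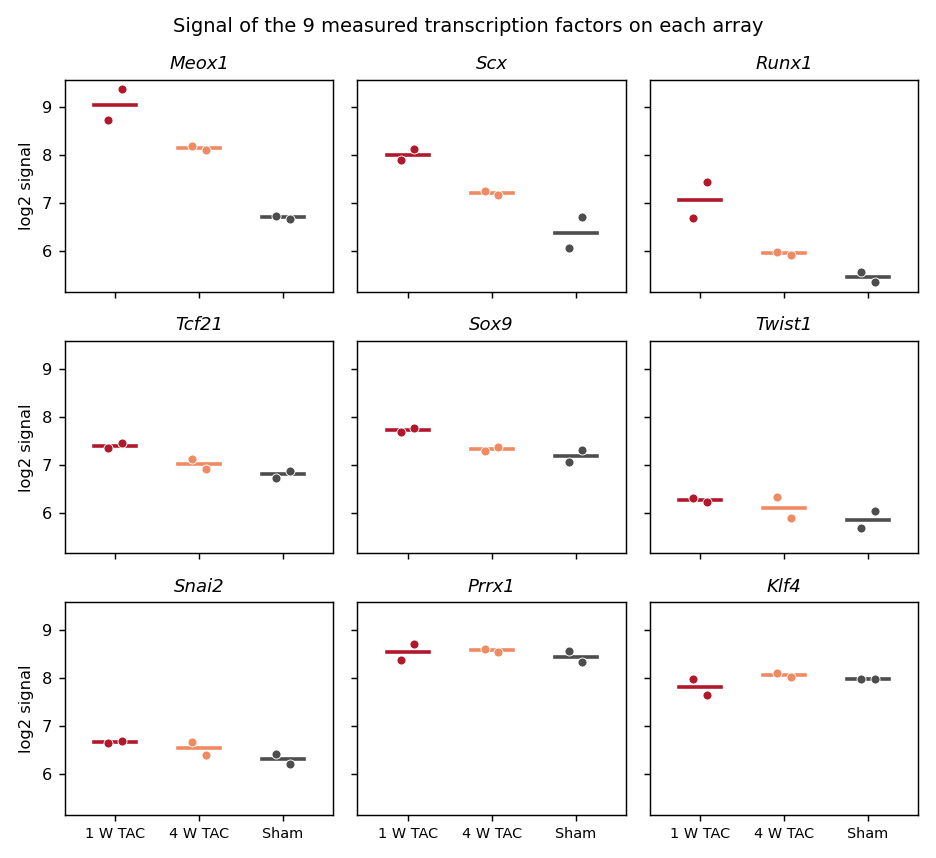
Log2 signal (y axis) of each measured factor on the 6 arrays, by group (x axis), with 1 point per array and a bar at the mean of the 2 arrays. Meox1, Scx, Runx1 and Tcf21 have 3 separate levels, with 1 W TAC on top and Sham at the bottom, while the Prrx1 arrays of all groups lie between 8.33 and 8.71.

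Meox1 (row 6791520), a homeodomain protein of the somites that takes part in the fibrotic program of cardiac fibroblasts in mice, had the highest ratio of the list in both comparisons with Sham. Its log2 signal was 8.74 and 9.37 on the 1 W TAC arrays, 8.20 and 8.11 on the 4 W TAC arrays, and 6.74 and 6.68 in Sham. All 3 groups were separate, and the gap between 1 W TAC and Sham was several times the gap of 0.63 between the 2 arrays of 1 W TAC. The log2 ratio was 2.35 ± 0.24 at 1 W TAC (SE, n = 2 arrays per group, 95% interval 1.74 to 2.95, limma adjusted p = 0.119 in the fit of all rows and 0.00716 in the separate fit of rows with 1 symbol). At 4 W TAC it was 1.44 ± 0.24 (95% interval 0.84 to 2.05, adjusted p = 0.575). Ranked by log2 ratio, Meox1 stood at place 32 of 14860 genes in both comparisons, which share the Sham arrays. Meox1 in 4 W TAC was below 1 W TAC by a log2 ratio of -0.90 (95% interval -1.50 to -0.30, adjusted p = 0.626).

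Prrx1 (row 6763646), the homeodomain factor of limb and connective tissue mesenchyme that marks fibroblast lineages, had signals of 8.37 and 8.71 on the 1 W TAC arrays, 8.61 and 8.54 on the 4 W TAC arrays, and 8.55 and 8.33 in Sham. The arrays of the groups overlapped in each of the 3 comparisons. Its log2 ratio was 0.10 at 1 W TAC (95% interval -0.38 to 0.58) and 0.13 at 4 W TAC (95% interval -0.35 to 0.62). The sign at 1 W TAC turned to -0.07 without the second 1 W TAC array and to -0.01 without the second Sham array.

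Runx1 (row 6847972), the Runt domain factor required for blood stem cells and also present in activated fibroblasts and injured cardiomyocytes, had signals of 6.70 and 7.45 on the 1 W TAC arrays, 5.98 and 5.93 on the 4 W TAC arrays, and 5.56 and 5.35 in Sham. The 2 arrays of 1 W TAC differed by 0.75, the widest gap of any factor within a group, but both lay above every other array. The log2 ratio was 1.62 ± 0.28 at 1 W TAC (95% interval 0.94 to 2.30, adjusted p = 0.173 in the fit of all rows and 0.03 in that of rows with 1 symbol). At 4 W TAC it was 0.50 ± 0.28, with an interval that includes 0 (-0.18 to 1.18, adjusted p = 0.958). Runx1 had the largest difference between the TAC groups, a log2 ratio of -1.12 in 4 W TAC against 1 W TAC (95% interval -1.80 to -0.44, adjusted p = 0.624). Its place in the ranking of genes was 104 after 1 week of TAC and 551 after 4 weeks.

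Runx1 is transcribed from a distal and a proximal start, and its single row does not tell them apart. The 250 bases before each start are given as the RefSeq promoter table has them (GRCm38.p6, minus strand, chr16:92826075-92826324 for the distal and chr16:92697330-92697579 for the proximal start), since Runx1 had the highest ratio at 1 W TAC among the factors with an entry there. Capitals mark CANNTG, the E-box that basic helix-loop-helix and Snail proteins read, in the distal promoter. In the proximal promoter, which has no E-box, they mark GGAATG, the reverse complement of the TEAD motif CATTCC.
Runx1 distal: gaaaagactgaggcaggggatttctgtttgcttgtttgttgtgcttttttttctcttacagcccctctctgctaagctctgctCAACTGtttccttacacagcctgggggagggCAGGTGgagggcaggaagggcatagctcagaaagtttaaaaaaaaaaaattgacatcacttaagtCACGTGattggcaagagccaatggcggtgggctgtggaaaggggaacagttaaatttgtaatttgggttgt
Runx1 proximal: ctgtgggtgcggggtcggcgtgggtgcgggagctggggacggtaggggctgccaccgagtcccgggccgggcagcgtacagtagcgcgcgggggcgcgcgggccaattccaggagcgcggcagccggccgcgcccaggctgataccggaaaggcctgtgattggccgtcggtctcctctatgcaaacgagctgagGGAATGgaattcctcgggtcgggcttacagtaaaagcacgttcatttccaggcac

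The distal promoter held 3 E-boxes, 1 of them with the letters CAGGTG that Snail proteins prefer, and its GC content was 45.6%. The proximal one had a GC content of 67.6%. Both strands were searched, and an E-box counted once where it reads on both. An E-box is found in 66.2% of all 32851 promoters of the table over the same length, CAGGTG, which is contained in CANNTG, in 17.2% and CATTCC in 12.6%. The letters TGTGGT, the core that Runt proteins bind, are in 14% of all promoters and in 0 of the 6 promoters of the 5 measured factors with an entry (Runx1, Twist1, Tcf21, Klf4 and Prrx1). These matches are letters only and no measure of binding.

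Sox9 (row 6784940), the master factor of cartilage, which also drives collagen genes in scarring organs, had signals of 7.67 and 7.76 on the 1 W TAC arrays, 7.29 and 7.37 on the 4 W TAC arrays, and 7.05 and 7.30 in Sham. Both 1 W TAC arrays were above all others, and the 4 W TAC and Sham arrays overlapped. The log2 ratio was 0.54 ± 0.17 at 1 W TAC (95% interval 0.11 to 0.97, adjusted p = 0.331) and 0.15 ± 0.17 at 4 W TAC (adjusted p = 0.983). The ratio at 4 W TAC was 0.03 without the first Sham array and 0.28 without the second. In 4 W TAC against 1 W TAC it was -0.39 (95% interval -0.81 to 0.04).

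Scx (row 6831657), or scleraxis, is the basic helix-loop-helix factor of tendons and heart valves and can switch on collagen genes in cardiac fibroblasts. Its signals were 7.90 and 8.12 on the 1 W TAC arrays, 7.26 and 7.17 on the 4 W TAC arrays, and 6.06 and 6.71 in Sham. The groups did not overlap, although the 2 Sham arrays were 0.65 apart, against a median gap of 0.23 over all genes in Sham. The log2 ratio at 1 W TAC was 1.63 ± 0.25 (95% interval 0.99 to 2.26, adjusted p = 0.157 in the fit of all rows and 0.0224 in that of rows with 1 symbol). It was 1.30 without the first Sham array and 1.95 without the second, the ends of the range over the arrays left out. At 4 W TAC the log2 ratio was 0.83 ± 0.25 (95% interval 0.20 to 1.46, adjusted p = 0.779), and it was 0.51 without the first Sham array and 1.15 without the second. In 4 W TAC against 1 W TAC it was -0.80 (95% interval -1.43 to -0.16, adjusted p = 0.70). Scx took place 101 of 14860 genes after 1 week of TAC and 137 after 4 weeks.

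Tcf21 (row 6772723), the factor of the epicardium that sets the cardiac fibroblast lineage apart and stays on in resting fibroblasts, had signals of 7.35 and 7.44 on the 1 W TAC arrays, 7.12 and 6.90 on the 4 W TAC arrays, and 6.73 and 6.86 in Sham. The arrays fell into 3 separate groups with small gaps between 4 W TAC and Sham. The log2 ratio was 0.60 ± 0.17 at 1 W TAC (95% interval 0.18 to 1.02, adjusted p = 0.29) and 0.22 ± 0.17 at 4 W TAC (95% interval -0.21 to 0.64, adjusted p = 0.971). That at 4 W TAC was 0.11 without the first 4 W TAC array and 0.33 without the second.

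Twist1 (row 6794360), a factor of embryonic mesenchyme, had signals of 6.30 and 6.22 on the 1 W TAC arrays, 6.33 and 5.88 on the 4 W TAC arrays, and 5.68 and 6.03 in Sham. Only the 1 W TAC arrays were apart from Sham, and the 2 arrays of 4 W TAC differed by 0.45. Its log2 ratio was 0.41 at 1 W TAC (95% interval -0.16 to 0.97, adjusted p = 0.595) and 0.25 at 4 W TAC (95% interval -0.31 to 0.81, adjusted p = 0.975). With single arrays left out, the ratio at 1 W TAC lay between 0.23 without the first Sham array and 0.58 without the second, and that at 4 W TAC between 0.03 without the first 4 W TAC array and 0.48 without the second.

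Snai2 (row 6839624), the zinc finger repressor also called Slug, acts in epithelial-to-mesenchymal transition. It had signals of 6.64 and 6.69 on the 1 W TAC arrays, 6.66 and 6.40 on the 4 W TAC arrays, and 6.42 and 6.21 in Sham. Both 1 W TAC arrays lay above Sham, and 1 array of 4 W TAC was level with them while the other was within the range of Sham. The log2 ratio was 0.35 at 1 W TAC (95% interval -0.10 to 0.80, adjusted p = 0.556) and 0.22 at 4 W TAC (95% interval -0.23 to 0.66, adjusted p = 0.972). Without the first 4 W TAC array the ratio at 4 W TAC was 0.09, and without the second it was 0.35.

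Klf4 (row 6921873), a zinc finger factor that holds smooth muscle and fibroblast differentiation in check and is strong in endothelium, was the only factor of the list with a negative log2 ratio at 1 W TAC. Its signals were 7.97 and 7.64 on the 1 W TAC arrays, 8.11 and 8.01 on the 4 W TAC arrays, and 7.98 and 7.98 in Sham. The 1 W TAC arrays were below Sham, one of them by the last printed digit, and the 4 W TAC arrays were just above it. The log2 ratio was -0.17 ± 0.18 at 1 W TAC (95% interval -0.63 to 0.28, adjusted p = 0.818) and 0.08 ± 0.18 at 4 W TAC (95% interval -0.37 to 0.53, adjusted p = 0.987). Its promoter stands beside those of Runx1 because Klf4 had the lowest ratio of the list at 1 W TAC (RefSeq, GRCm38.p6, minus strand, chr4:55532476-55532725). Capitals again mark CANNTG.
Klf4: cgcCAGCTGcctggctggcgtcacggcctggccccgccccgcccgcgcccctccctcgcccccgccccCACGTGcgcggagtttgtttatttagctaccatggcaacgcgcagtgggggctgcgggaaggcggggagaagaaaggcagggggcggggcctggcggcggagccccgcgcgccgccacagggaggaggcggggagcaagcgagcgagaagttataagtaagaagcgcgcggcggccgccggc

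The Klf4 promoter held 2 E-boxes and had a GC content of 74%. Among the 6 promoters of measured factors, 2 held an E-box, the distal one of Runx1 and that of Klf4, which are the promoters of a factor near the top and of the factor at the bottom of the list.

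**Figure D2:**
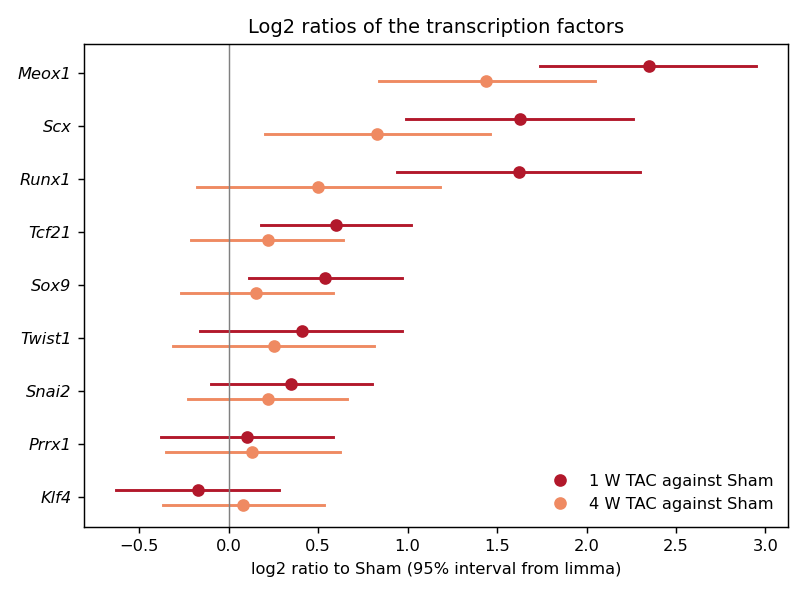
Log2 ratio to Sham (x axis) of each factor (y axis), as points with 95% intervals from limma, in dark red for 1 W TAC and orange for 4 W TAC. The intervals of Meox1 and Scx lie above 0 in both comparisons, and those of Prrx1, Klf4, Twist1 and Snai2 include 0 in both.

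Counted over the list, 7 of the 9 factors had both 1 W TAC arrays above both Sham arrays, where 22.1% of all genes did. Klf4 was the 1 factor with both below, where 20.4% of genes did, and Prrx1 overlapped. At 4 W TAC, 5 of the 9 were apart and higher (Meox1, Scx, Runx1, Tcf21 and Klf4), against 17.3% of all genes, and the other 4 overlapped with Sham. The median log2 ratio of the 9 factors was 0.54 after 1 week of TAC and 0.22 after 4 weeks, beside 0.01 and 0.04 over all genes. A log2 ratio of at least 1 was reached by 3 of the 9 at 1 W TAC, beside 2.33% of all genes, and by Meox1 alone at 4 W TAC, beside 0.606%. Both comparisons use the same Sham arrays, so their counts are not independent of each other.

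**Figure D3:**
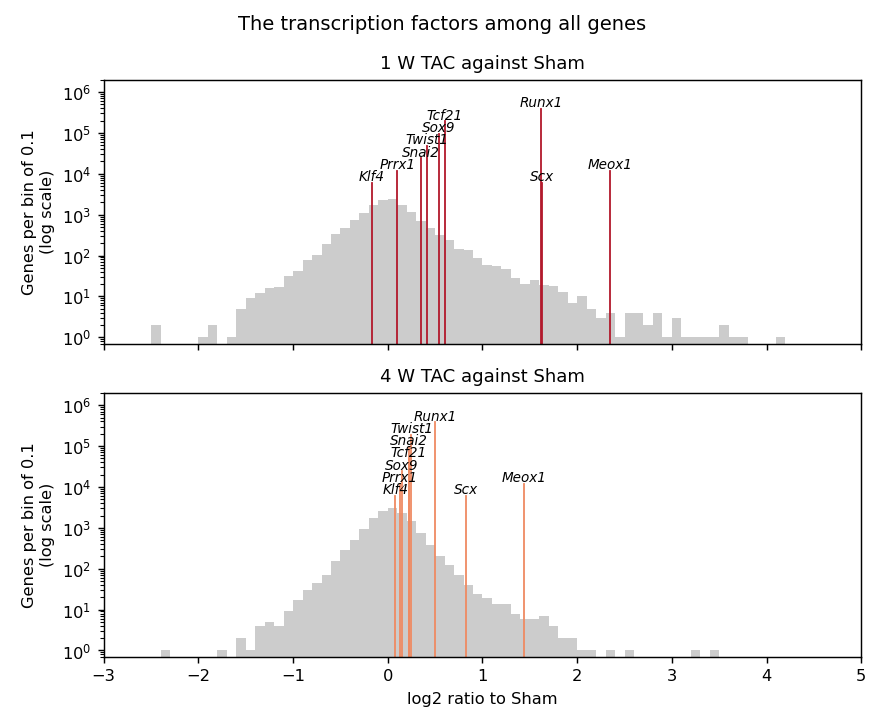
Number of genes per bin of log2 ratio (grey bars, log scale on the y axis) against the log2 ratio to Sham (x axis) for 1 W TAC (upper panel) and 4 W TAC (lower panel), with a line at the ratio of each factor. Meox1, Scx and Runx1 stand in the right tail at 1 W TAC, and at 4 W TAC the other 6 factors lie between 0.08 and 0.25.

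Between the TAC groups, 5 of the 9 factors had both 4 W TAC arrays below both 1 W TAC arrays, where 16.6% of all genes did. They were Runx1, Meox1, Scx, Sox9 and Tcf21, the 5 with the highest ratios at 1 W TAC, and the 2 comparisons share the 1 W TAC arrays. Klf4 was apart in the other direction, as 20.3% of genes were, with a log2 ratio of 0.25 (95% interval -0.20 to 0.71, adjusted p = 0.895). Twist1, Snai2 and Prrx1 overlapped. The median log2 ratio of the 9 was -0.38 in 4 W TAC against 1 W TAC, beside 0.01 over all genes.

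No close relative of the factors had a ratio as high as those of Meox1, Scx and Runx1 at 1 W TAC. Of 18 listed relatives 16 were measured, 0 passed limma's test over all rows in any comparison, and 2 were higher at an unadjusted p under 0.05 at 1 W TAC, Prrx2 and Msc. This count is near the 7.16% of all genes that were. The median log2 ratio of the relatives was 0.13 after 1 week of TAC and 0.11 after 4 weeks. None had a log2 ratio of 1 or more. At 1 W TAC, 6 of the 16 were apart and higher and 4 apart and lower, beside 22.1% and 20.4% of all genes. At 4 W TAC, 4 were apart and higher, beside 17.3% of all genes, and 0 apart and lower.

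Within each family the listed factor and its relatives can be set side by side. Meox2, the other Meox gene, had signals of 6.89 and 6.99 on the 1 W TAC arrays, 6.77 and 7.09 on the 4 W TAC arrays, and 7.18 and 6.88 in Sham, with overlap throughout and a log2 ratio of -0.09 at 1 W TAC, where Meox1 had 2.35. Runx3, a Runt factor best known from T cells, had a log2 ratio of 0.43 ± 0.21 after 1 week of TAC and 0.18 after 4 weeks. Prrx2 was apart from Sham at both times, with signals of 6.18 and 6.24 on the 1 W TAC arrays, 5.81 and 5.92 on the 4 W TAC arrays, and 5.34 and 5.73 in Sham. Its log2 ratio at 1 W TAC was 0.68 ± 0.19 (adjusted p = 0.29), where Prrx1 had 0.10. The differences between relatives were not tested.

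Among the Sox genes, Sox4, a factor of embryonic progenitors, had a log2 ratio of 0.31 after 1 week of TAC and 0.40 after 4 weeks and was apart from Sham at both times. Sox8, which with Sox9 and Sox10 forms a subgroup of the family, had 0.22 and 0.28 and was also apart at both times. Sox5 and Sox6, which assist Sox9 in cartilage, had 0.07 and -0.33 at 1 W TAC, and Sox10, a Schwann cell factor, had -0.23. The 1 W TAC arrays of Sox6 and Sox10 were apart from Sham and lower. Sox9 had the highest ratio of the 6 Sox genes at 1 W TAC, and Sox4, Sox8 and Sox5 (0.20) had higher ratios than Sox9 (0.15) at 4 W TAC.

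Snai1, the Snail gene that acts early in epithelial-to-mesenchymal transition, had the highest log2 ratio of the relatives at 1 W TAC, 0.79 ± 0.41 (adjusted p = 0.558). The arrays of its Sham group were 5.72 and 4.74 and those of 4 W TAC 5.75 and 4.92, so the spread within these groups was about as large as the ratio. Snai3 had a log2 ratio of -0.31 at 1 W TAC, with its 1 W TAC arrays below Sham. Of the Klf genes, Klf6 had 0.38 and Klf5 0.20 with overlap, and Klf2, an endothelial factor that responds to blood flow, had -0.32 with its 1 W TAC arrays below Sham. Msc (musculin), a relative of Tcf21, had 0.49 ± 0.19 at 1 W TAC (adjusted p = 0.432) and 0.08 at 4 W TAC. Hand1 and Hand2, the helix-loop-helix factors of the embryonic ventricles, had -0.08 each at 1 W TAC. Twist2 and Tcf15 had no row with their symbol alone.

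**Figure D4:**
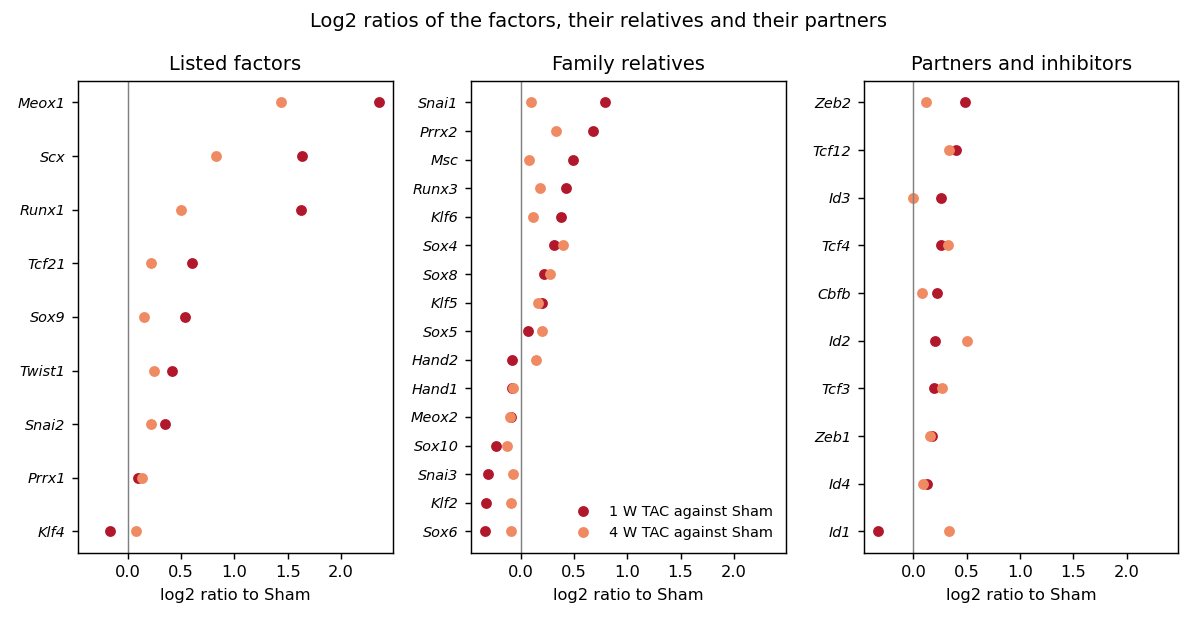
Log2 ratio to Sham (x axis) of the 9 factors, 16 family relatives and 10 partners (y axis, 1 gene per line), in dark red for 1 W TAC and orange for 4 W TAC. Relatives lie between -0.33 and 0.79 at 1 W TAC and partners between -0.33 and 0.48, short of Runx1, Scx and Meox1.

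The partners had small ratios as well. Runt proteins bind DNA with Cbfb, whose log2 ratio was 0.22 after 1 week of TAC and 0.08 after 4 weeks with overlap at both times. Tcf3, Tcf4 and Tcf12 encode the E proteins with which Scx, Tcf21 and Twist1 pair, and their log2 ratios were 0.19, 0.26 and 0.40 at 1 W TAC, each with both 1 W TAC arrays above Sham, as 22.1% of all genes had. The Id proteins bind E proteins and keep them from DNA. Id1 had a log2 ratio of -0.33 after 1 week of TAC and 0.33 after 4 weeks, Id2 had 0.20 and 0.50, Id3 had 0.26 and 0.00, and Id4 had 0.13 and 0.09. Zeb2, which like Snai2 represses epithelial genes, had signals of 8.50 and 8.55 on the 1 W TAC arrays, 8.06 and 8.28 on the 4 W TAC arrays, and 8.20 and 7.89 in Sham. Its log2 ratio was 0.48 ± 0.19 at 1 W TAC (adjusted p = 0.428), and that of Zeb1 was 0.17. Of the 10 partners 0 passed limma's test over all rows, 1 was higher at an unadjusted p under 0.05 at 1 W TAC (Zeb2, beside 7.16% of all genes), and the median log2 ratio was 0.21 at both times.

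Among genes that signal to fibroblasts or relay the signal (TGF-beta ligands and receptors, Smads, Srf with its cofactors, Yap1, Tead factors and immediate early factors), 23 of 25 were measured. At an unadjusted p under 0.05, 8 were higher and 0 lower at 1 W TAC, beside 7.16% and 4.87% of all genes, and 4 were higher at 4 W TAC, beside 2.42%, with 0 passing over all rows in limma. The median log2 ratio was 0.32 after 1 week of TAC and 0.22 after 4 weeks. Tgfb3 had signals of 8.47 and 9.02 on the 1 W TAC arrays, 7.58 and 8.06 on the 4 W TAC arrays, and 7.03 and 6.85 in Sham, and Tgfb2 had 7.24 and 8.08 on the 1 W TAC arrays, 6.79 and 7.27 on the 4 W TAC arrays, and 5.90 and 5.84 in Sham. Both ligands were apart from Sham at both times, with log2 ratios of 1.80 for Tgfb3 and 1.79 for Tgfb2 at 1 W TAC. They were the 2 genes of the list that passed in limma's fit of rows with 1 symbol (adjusted p = 0.02 for Tgfb3 and 0.0336 for Tgfb2). In that fit 1.37% of rows passed as higher at 1 W TAC. Tgfb1 had a log2 ratio of 0.93 at 1 W TAC, and the receptor Tgfbr1 had 0.84. Egr1, an immediate early zinc finger factor, had a log2 ratio of 0.76 after 1 week of TAC and 1.00 after 4 weeks.

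Matrix and myofibroblast genes, many of which the listed factors can act on, had the highest median ratio of the lists at both times. Of 20 genes 16 were measured. In the fit of rows with 1 symbol, 12 of them passed as higher at 1 W TAC, beside 1.37% of its rows. Over all rows 0 passed, and 14 were higher at 1 W TAC at an unadjusted p under 0.05, beside 7.16% of all genes. The median log2 ratio was 2.95 at 1 W TAC, 1.33 at 4 W TAC and -1.02 in 4 W TAC against 1 W TAC. Postn, the matrix protein periostin of activated fibroblasts, had signals of 11.67 and 12.31 on the 1 W TAC arrays, 9.96 and 10.82 on the 4 W TAC arrays, and 8.06 and 7.61 in Sham. Log2 ratios at 1 W TAC were 4.15 for Postn, 3.80 for Cilp, 3.61 for Thbs4, 3.58 for Timp1, 3.54 for Fn1 and 3.33 for Col1a1. The contractile genes Acta2, Tagln and Cnn1 are named here after their values were seen, and Cnn1 comes from the list of smooth muscle markers. Their log2 ratios at 1 W TAC were -0.08 for Acta2, -0.02 for Tagln and 1.51 for Cnn1, of which that of Cnn1 passed in the fit of rows with 1 symbol (adjusted p = 0.0368). Their log2 ratios at 4 W TAC were -0.38 for Acta2, -0.62 for Tagln and -0.29 for Cnn1. Each had both 4 W TAC arrays below Sham, as 1923 of all 14860 genes had, and none passed the test. Of the 8 smooth muscle markers measured, 3 lay below Sham in this comparison, Cnn1 among them, 1 lay above (Cspg4, 0.47) and 4 overlapped. In 1 W TAC against Sham, 3 of these markers were apart and higher, Cnn1, Cspg4 with 0.57 and Notch3 with 0.18, beside 22.1% of all genes. The 2 that were apart and lower were Myh11 with -0.89 and Abcc9 with -1.03, beside 20.4% of all genes.

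Genes of cartilage, bone and tendon, the tissues in which Sox9, Runx2 and Scx have their best known targets, mostly had small ratios. Of 16 genes 13 were measured, with a median log2 ratio of 0.15 after 1 week of TAC and 0.21 after 4 weeks and with 0 passing over all rows. At an unadjusted p under 0.05, 3 were higher and 1 was lower at 1 W TAC, beside 7.16% and 4.87% of all genes, and 1 passed as higher in the fit of rows with 1 symbol, beside 1.37% of its rows. That 1 was Col11a1, a cartilage collagen, with signals of 5.48 and 5.81 on the 1 W TAC arrays, 4.62 and 4.81 on the 4 W TAC arrays, and 4.29 and 4.41 in Sham, and a log2 ratio of 1.29 ± 0.19 at 1 W TAC (adjusted p = 0.0211 in that fit). Comp, a matrix protein of cartilage and tendon, had 1.12 after 1 week of TAC and 1.86 after 4 weeks. Tnmd, a tendon gene that scleraxis switches on, had a log2 ratio of 0.38 after 1 week of TAC and 1.12 after 4 weeks, so the higher of its ratios was at 4 W TAC, where Scx had the lower of its own. Whether Tnmd and Scx are related in these ventricles was not tested. Chad, a cartilage protein, had -1.03 at 1 W TAC, with Sham arrays of 7.86 and 6.63.

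The same arrays also differed in markers of other cells. Of the 11 measured macrophage markers, 10 had both 1 W TAC arrays above Sham, beside 22.1% of all genes, and their summed linear signal was 2855 and 3894 on the 1 W TAC arrays, 1368 and 1788 on the 4 W TAC arrays, and 1207 and 1170 in Sham. Their median log2 ratio was 1.5 after 1 week of TAC and 0.42 after 4 weeks, with 2.13 for Adgre1 at 1 W TAC. The sum of 12 resting fibroblast markers was 10765 and 10880 on the 1 W TAC arrays, 9528 and 11993 on the 4 W TAC arrays, and 7627 and 6819 in Sham, with a median log2 ratio of 0.47 after 1 week of TAC and 0.57 after 4 weeks. Dcn, with the highest signal, weighs most in this sum. The markers diverged at 1 W TAC, from -0.84 for Gsn to 2.62 for Mfap4. Of the 12, 9 were apart and higher and 2 lower (Gsn and Scara5), beside 22.1% and 20.4% of all genes. The summed signal of the 8 endothelial markers was 3500 and 3426 on the 1 W TAC arrays, 3917 and 4229 on the 4 W TAC arrays, and 3925 and 3424 in Sham. Of the 2 arrays of 1 W TAC, the second was the higher one for 7 of the 9 factors, for 10 of the 11 macrophage markers and for all 16 matrix genes measured. It was also the higher one for 14 of the 16 relatives and 17 of the 23 signal genes. For resting fibroblast markers this held for 5 of 12, and for endothelial markers for 2 of 8. The share over all genes was not counted, so these numbers cannot be set beside it. What part other cells have in the ratios of Runx1, Meox1 and Scx was not tested.

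The array medians over genes lay between 5.85 and 6.04. The brown fat gene Ucp1 was high on 1 Sham array (8.21, against 4.19 on the other) and 1 array of 4 W TAC (6.35, against 3.96). Without these 2 arrays the log2 ratio at 1 W TAC was 2.38 for Meox1, 1.73 for Runx1 and 1.30 for Scx, and at 4 W TAC it was 1.43 for Meox1, 0.58 for Runx1 and 0.46 for Scx.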

How the data were processed

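Left ventricles of 6 mice were profiled on exon arrays, 1 per array. The deposited values are log2 signals per transcript cluster that the authors made by RMA in Affymetrix Expression Console (versions not given in the sources used here), with background correction, quantile normalization and a summary over probes. Such a summary over all exons hides differences between transcripts of a gene. The labels name Trizol and the paper's methods a column kit for the RNA. No source used here gives the genome build. Nothing beyond separate mice is stated about replicates or batches.

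Of 23332 rows, 14996 carried 1 gene symbol, 1019 several and 7317 none, and 14860 genes resulted. In R 4.3.3, limma 3.58.1 fitted 1 mean per group to all 6 arrays (lmFit, eBayes; 3 residual and 2.68 prior degrees of freedom, prior SD 0.219), two-sided, with Benjamini-Hochberg adjustment over all rows and a threshold of 0.05. An exact test of 2 against 2 arrays cannot go below p = 0.333 and was not used. No filter on low signal was applied. The fit was tested on simulated data. Plots were made in Python 3.11.15 with matplotlib 3.10.9.

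Named genes are all listed factors, all measured relatives and partners, and up to 6 genes of each other list with the largest absolute log2 ratio to Sham. The factors and the gene lists were chosen with earlier results of these data known. The lists were written by hand, and 5 hold related genes and 14 markers of cell types. Median log2 ratios at 1 W TAC of the marker lists not given in the report were -0.18 for cardiomyocytes (4 genes), -0.85 for atrium (2), 0.15 for lymphocytes (9), 0.10 for neutrophils (5), 0.10 for mast cells (4), -0.06 for platelets (4), -1.39 for erythroid cells (1), -0.16 for endothelium (8), -0.07 for smooth muscle (8), -0.04 for mesothelium (5), -0.08 for Schwann cells (3) and -0.42 for brown fat (5). Promoter sequences came from RefSeq (GRCm38.p6). Alternatives covered row filters, scaling, eBayes options, the replicate block, single arrays left out and a t-test with a fold minimum, a rule that the paper gives for splicing factors.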

Additional observations from a re-analysis of the deposited data

Results flagged for a closer look

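Klf4 was the 1 gene, among the 35 factors, relatives and partners looked at, whose 1 W TAC arrays (7.97 and 7.64) both lay below both Sham arrays (7.98 and 7.98) while its 4 W TAC arrays (8.11 and 8.01) both lay above them. The pattern rests on 7.97 against 7.98. Its share over all genes was not counted, so nothing is drawn from the count of 1. The difference between the TAC groups was a log2 ratio of 0.25 in 4 W TAC against 1 W TAC (95% interval -0.20 to 0.71, limma adjusted p = 0.895), so it did not pass the test.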

How the results depend on the processing

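With 2 arrays per group, the ratios of single factors rest on few values. The number of factors passing at 1 W TAC against Sham was 0 over all rows and 3 with only the rows of 1 symbol, where 268 of 14996 rows passed. It was 3 with a mean signal of at least 6, where 331 of 9400 rows passed. With a mean of at least 7 it was 2, beside 346 of 5737 rows, and Runx1, Twist1 and Snai2 had been left out. The filter mean includes the 1 W TAC arrays, where Runx1 and Scx were highest. Runx1 at 6 and Scx at 7 were kept through those arrays, so their passing is no separate evidence. Twist1 at 6 and Tcf21 at 7 were also kept through the 1 W TAC arrays, and neither passed. With the filter at 7, Meox1 also passed at 4 W TAC (1 factor, adjusted p = 0.0361), beside 15 of 5737 rows. With that filter 5 factors were apart from Sham at 1 W TAC, instead of 8, and Scx and Tcf21 were among the 5. At 4 W TAC the number apart from Sham, 5, became 3 after another quantile normalization, 8 without the second 4 W TAC array, and 9 without the 2 arrays high in Ucp1, where each group compared has 1 array. With 1 array left out, it ranged over 5 to 8 at 4 W TAC, 8 to 9 at 1 W TAC and 6 to 8 between the TAC groups. A group of 1 array is apart from another more easily than a group of 2. The share of all genes apart was not counted for these alternatives, so the numbers cannot be set beside it. The median log2 ratio of the factors ranged over 0.45 to 0.66 at 1 W TAC (0.45 without the 2 arrays high in Ucp1, an alternative chosen after seeing the data), 0.11 to 0.35 at 4 W TAC and -0.43 to -0.27 between the TAC groups. The sign turned for Prrx1 at 1 W TAC (-0.07 and -0.01, in a range up to 0.27 with 1 array left out), for Twist1 at 4 W TAC without the 2 arrays high in Ucp1 (-0.15) and between the TAC groups without the second 4 W TAC array (0.07, in a range from -0.38), and for Prrx1 between the TAC groups (-0.03 after another quantile normalization, -0.14 without the first 1 W TAC array, in a range up to 0.20, and 0.00 without the first 4 W TAC array or the arrays high in Ucp1). The cause was not tested. Meox1 at 1 W TAC ranged over 2.03 to 2.66 with 1 array left out, Scx over 1.30 to 1.95 and Runx1 over 1.25 to 2.00. A t-test (unadjusted p under 0.05 with a 1.5-fold difference) selected 3 factors at 1 W TAC (Meox1, Tcf21 and Scx), beside 829 of 23332 rows. It selected 1 at 4 W TAC (Meox1), beside 326 rows, and 1 between the TAC groups (Scx), beside 355 rows. After Benjamini-Hochberg adjustment 0 rows were left.

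With the replicate number as a block, 0 rows passed in the 3 comparisons, and 0 factors. The labels give a replicate number and do not say what it stands for. The differences between replicates correlated at -0.20, -0.267 and 0.145 over genes. With 1 difference per group, these values cannot settle whether the number marks a pairing or a batch. With the Sham numbers crossed, a pairing chosen after seeing the data, 0 rows and 0 factors passed in both comparisons with Sham.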
